A study of Mus musculus with 16 samples.

Results

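Interferons are cytokines that warn cells of infection, and the genes described here carry out the response to them. Type I and type III interferons act through a complex that includes STAT2 and IRF9 and binds the interferon-stimulated response element (ISRE). Interferon gamma acts through the gamma-activated site (GAS). In liver, the induced proteins limit viruses in hepatocytes, arm resident macrophages and prepare peptides for display to T cells. The set held 38 genes chosen by name: 5 transcription factors, 5 sensors of foreign nucleic acid and their ligase, 6 oligoadenylate synthetases, 9 other antiviral effectors, 4 genes of the ISG15 system and its neighbours, 6 interferon-inducible GTPases and 3 genes of antigen processing. All 38 matched a gene symbol in the mm9 annotation, out of 22223 protein-coding genes.

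The assay was DNase-seq, in which DNase I releases DNA fragments from accessible sites of purified liver nuclei, and a site with a pile of such fragments is a DNase hypersensitive site (DHS). The mice were males and females, 8 weeks old, of the inbred strains C57BL/6J (B6), the source of the mouse reference genome, and CAST/EiJ (CAST), a wild-derived strain of the castaneus subspecies. The labels named no treatment or infection, and nuclei of all samples were digested with 32 units of DNase I. Each sex and strain had 4 libraries, 16 in all, and its 4 libraries were merged before DHS were called, so each of the 4 lists was a single measurement without replicate error, and no difference below could be set against a spread between animals.

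The male lists were the longer ones in both strains, with 38751 and 26271 peaks in B6 males and females and 39562 and 24888 in CAST males and females. Overlapping fragments at the background of the genome, recovered from the peak scores, numbered 15.4 and 13.9 in B6 and 14.3 and 7.94 in CAST for the same sexes, so female CAST was the thinnest list. Hepatocytes were the population seen most clearly: all 8 hepatocyte marker genes had a promoter DHS in all 4 lists, against 2 of 8 markers of sinusoidal endothelial cells, 1 of 8 lymphocyte markers and 0 of 8 Kupffer cell markers, 7 of which had a promoter DHS in no list. The endothelial count was low because of the CAST lists: 6 and 5 of the 8 had a promoter DHS in male and female B6, against 2 in each CAST list. Of these 8 markers, 2 had a promoter DHS in no list. In nuclei of whole liver, fewer cells of a type and weaker opening in each cell cannot be told apart.

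Every peak that overlapped a member gene or the 20 kb on either side of it was taken, and peaks sharing 1 bp or more were merged into regions. This gave 115 DHS regions of 51482 in the 4 lists. A promoter DHS is a peak within 2.5 kb of the start of a coding transcript. By that limit, 37 regions lay at promoters of member genes, 23 at promoters of other genes in the same windows, and 55 were distal. The strength of a peak is its deposited fold enrichment, the ratio of fragments at the summit to the local background, and its rank percentile places that value among all peaks of its own list.

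The promoters differ in their motifs, and the sequences just before the start site are shown for 11 members because they carry the ISRE and because the members differ in whether a DHS was found within 2.5 kb of a coding start. Each is 100 bases ending just before the 5′-most coding start, read 5′ to 3′ on the strand of the gene from mm9, with every match to GAAANNGAAA on either strand in capitals (the other strand reads TTTC, NN, TTTC). Matches may overlap, and runs of capitals longer than 10 letters hold more than 1. The first 4 had a promoter DHS in all 4 lists.
Usp18 (chr6:121195824-121195923, plus strand): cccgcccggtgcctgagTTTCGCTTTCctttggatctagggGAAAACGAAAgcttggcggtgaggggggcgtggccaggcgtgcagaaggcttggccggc
Zbp1 (chr2:173044425-173044524, minus strand): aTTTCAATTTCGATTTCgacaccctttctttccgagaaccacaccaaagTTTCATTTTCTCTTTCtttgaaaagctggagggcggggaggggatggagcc
Gbp7 (chr3:142193202-142193301, plus strand): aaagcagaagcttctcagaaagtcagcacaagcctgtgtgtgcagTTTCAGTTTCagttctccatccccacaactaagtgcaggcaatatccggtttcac
Irgm1 (chr11:48684923-48685022, minus strand): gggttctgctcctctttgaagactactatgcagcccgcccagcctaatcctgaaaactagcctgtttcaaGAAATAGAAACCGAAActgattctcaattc

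The promoters of Gbp3 and Isg15 had a DHS within 2.5 kb in every list but female CAST, that counted for Isg15 lying outside the bases printed. Those of Igtp and Oas1b had 1 in the male lists only. The DHS of Igtp (chr11:58012703-58013016) ends before the ISRE match printed.
Gbp3 (chr3:142222916-142223015, plus strand): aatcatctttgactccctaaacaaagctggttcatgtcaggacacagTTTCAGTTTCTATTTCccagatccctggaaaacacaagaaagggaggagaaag
Isg15 (chr4:155574928-155575027, minus strand): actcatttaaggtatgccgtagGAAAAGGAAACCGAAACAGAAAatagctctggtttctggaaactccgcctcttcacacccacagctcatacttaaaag
Igtp (chr11:58012958-58013057, plus strand): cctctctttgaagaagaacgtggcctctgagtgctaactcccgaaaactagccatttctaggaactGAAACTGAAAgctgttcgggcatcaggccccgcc
Oas1b (chr5:121262544-121262643, plus strand): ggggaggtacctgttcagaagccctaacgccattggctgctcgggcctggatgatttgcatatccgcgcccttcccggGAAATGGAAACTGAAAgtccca

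The promoters of Oas1a, Oas3 and Ifit1 had a DHS in no list, although each holds at least 1 match. The same held for Oas2, which has 1 match in these bases and is not printed.
Oas1a (chr5:121357537-121357636, minus strand): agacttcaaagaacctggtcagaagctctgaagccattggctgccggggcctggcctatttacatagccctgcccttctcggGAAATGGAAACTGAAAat
Oas3 (chr5:121227671-121227770, minus strand): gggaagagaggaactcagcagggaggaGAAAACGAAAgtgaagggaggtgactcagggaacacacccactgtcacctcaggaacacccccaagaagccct
Ifit1 (chr19:34715261-34715360, plus strand): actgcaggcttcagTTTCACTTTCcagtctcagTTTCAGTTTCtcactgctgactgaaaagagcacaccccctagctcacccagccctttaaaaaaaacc

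The GAS is shown for Irf1 and Irf8, which hold no ISRE match in this window but have a promoter DHS in all 4 lists. Capitals mark matches to TTCNNNGAA, which reads the same on both strands and is also the pattern that STAT5 binds.
Irf1 (chr11:53583396-53583455, plus strand): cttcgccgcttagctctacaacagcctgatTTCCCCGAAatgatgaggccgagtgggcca
Irf8 (chr8:123260068-123260127, plus strand): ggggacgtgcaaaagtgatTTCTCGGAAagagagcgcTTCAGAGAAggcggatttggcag

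Of the 38 members, 24 (63.2%) had an ISRE match between 250 bases before and 50 bases after a coding start, with a Wilson 95% interval of 47.3 to 76.6%. The share was 12 of 45 (26.7%) among other genes of the interferon pathway and 1308 of 22217 (5.89%) among all coding genes with such a window. GAS matches were found in 14 members (36.8%), 12 other pathway genes (26.7%) and 2624 of all coding genes (11.8%). Members had a median of 2 coding starts and all coding genes of 1, so a member had more windows in which a match could fall. A match describes letters in the B6 reference and not binding, and CAST letters were not used here. Intervals cover counting error only.

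ISRE matches were not limited to promoters with a DHS. They were found in 10 of the 18 members with a promoter DHS in all 4 lists (55.6%, 33.7 to 75.4%), in 8 of the 12 with 1 in some lists (66.7%, 39.1 to 86.2%) and in 6 of the 8 with none (75%, 40.9 to 92.9%). Within 150 bases of the summit, 16 of the 37 member promoter regions (43.2%) held an ISRE match, against 402 of 14731 promoter regions in all (2.73%). Among distal regions near members it was 6 of 55 (10.9%, 5.10 to 21.8%), against 1499 of 36746 distal regions in all (4.08%).

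**Figure D1:**
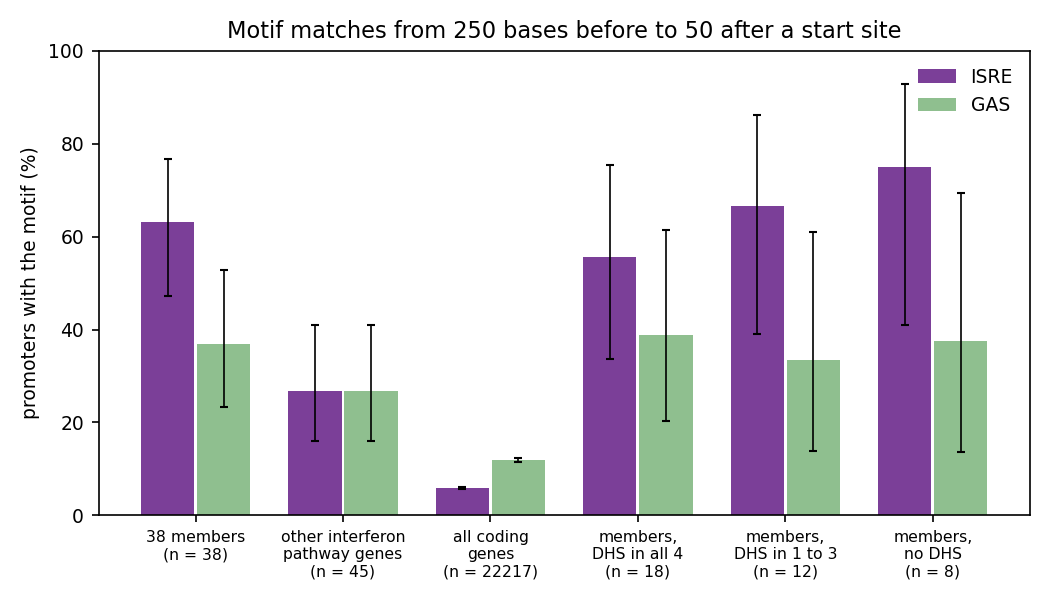
Share of genes with an ISRE match (purple) or a GAS match (green) between 250 bases before and 50 bases after a coding start, in percent, with Wilson 95% intervals as error bars. The ISRE bar of the 38 members stands at 63.2%, above the 5.89% of all coding genes, and the intervals of the members with a promoter DHS in all, some or none of the 4 lists overlap.

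The observed over expected CpG ratio of the same 300 bases at the 5′-most start had a median of 0.523 in the 18 members with a promoter DHS in all lists, 0.385 in the 12 with 1 in some and 0.165 in the 8 with none. The ranges overlapped (0.0793 to 1.03 in the first class and 0.0554 to 0.433 in the last), and the median GC content was 53.7%, 53% and 51.2%. Over all coding genes the medians were 0.787, 0.571 and 0.238 for the same classes, the same order at a higher level. Irf8 had the highest ratio among members (1.03) and Ifit3 the lowest (0.0554). Gbp2, with a promoter DHS in all lists, stood at 0.0793.

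In total, 18 of 38 members (47.4%, 32.5 to 62.7%) had a promoter DHS in all 4 lists, 12 in some and 8 in none. Among all coding genes, 43.8% had a promoter DHS in all lists and 43.6% in none, the latter against 21.1% of members. The first share depended on the threshold: with peaks kept at a −log10 q of at least 15.7, it was 6 of 38 members (15.8%, 7.44 to 30.4%), against 27.2% of all coding genes. Where members had a promoter DHS, it ranked lower than that of coding genes at large: the median percentile was 60.6 and 58.6 in B6 males and females and 56.3 and 55.8 in CAST males and females, against 76.6, 71.8, 74.9 and 68.4 over all coding genes. Wherever 4 values stand together, they keep this order. The 45 other interferon pathway genes (receptors, kinases, feedback regulators, adaptors and further induced genes) had a promoter DHS in all lists for 28 and in none for 3. Their median percentiles were 64.6, 60.6, 58.8 and 57.0, likewise below those over all coding genes, so the lower rank was not particular to the members.

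**Figure D2:**
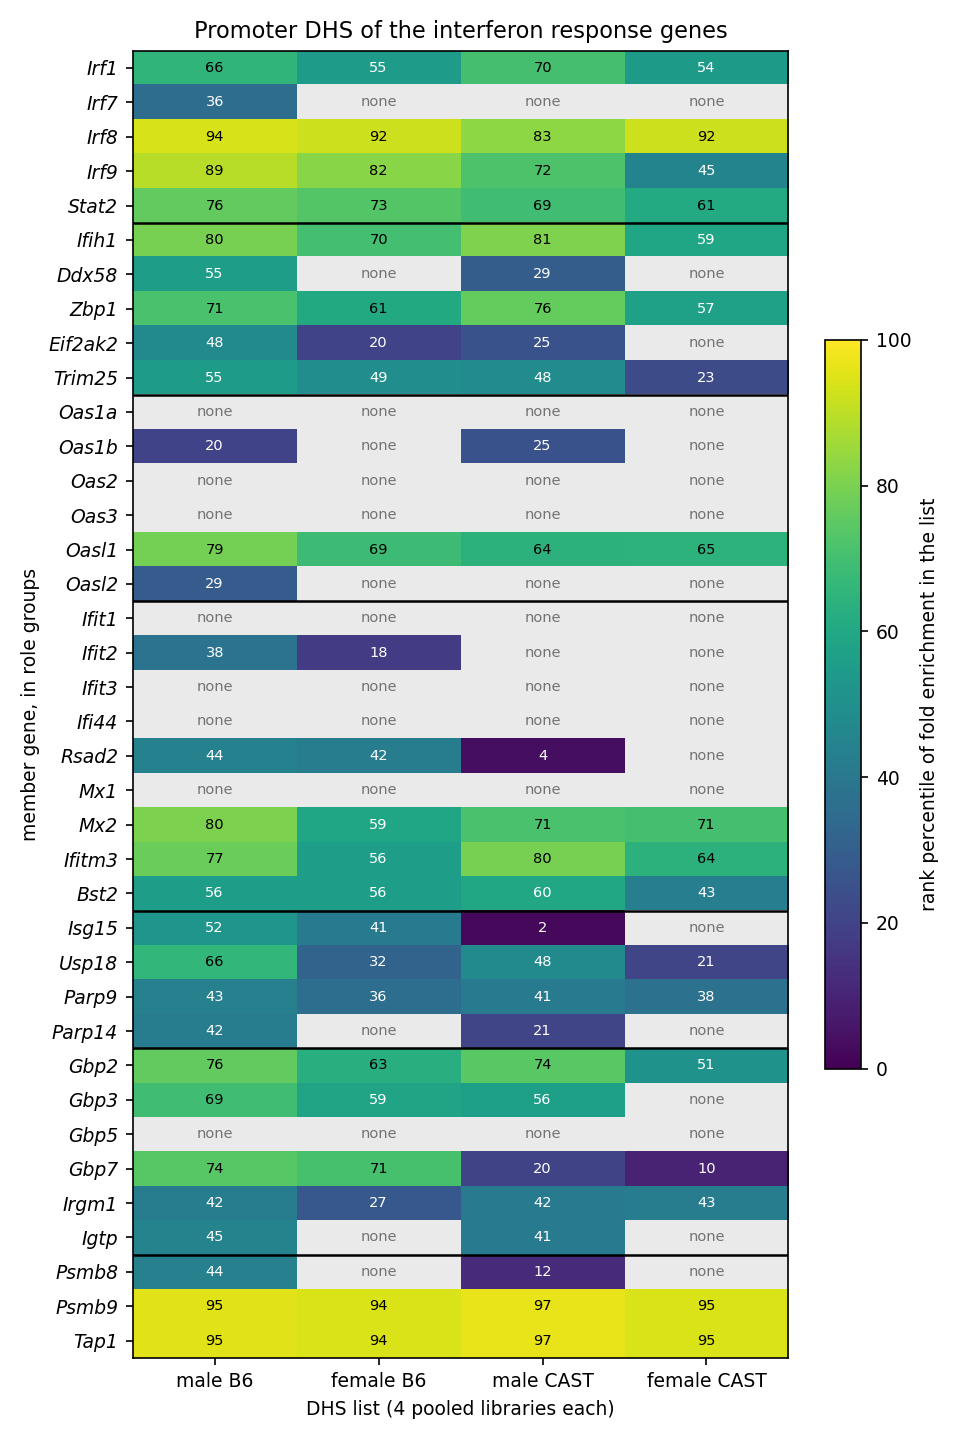
Rank percentile of the strongest promoter peak of each of the 38 members in each list, with members in role groups separated by black lines. Colour runs from 0 (weakest peak of the list) to 100 (strongest), and grey cells marked none have no peak within 2.5 kb of a coding start. Psmb9 and Tap1 share the strongest promoter, Irf8 follows, and 3 of the 6 oligoadenylate synthetases are grey in all lists.

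The transcription factors were among the most open members. Irf8, which directs the myeloid lineage and gene induction by interferon gamma, had a promoter region at chr8:123259738-123260587 over its first exon, with fold enrichments of 9.39 and 6.93 in male and female B6 and of 6.97 and 8.54 in male and female CAST. These stood at percentiles 94.1, 92.3, 82.9 and 92.3, high in all lists and lowest in male CAST. Macrophages also use Irf8, while 0 of the 8 Kupffer cell markers had a promoter DHS in all lists; the part of such cells in this value was not tested. The opening of Irf1, an early inducible factor, ranged from 3.46-fold in female B6 to 5.32-fold in male CAST, and that of Stat2, part of the ISRE-binding complex, from 4.44 to 5.48.

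Irf9 encodes the DNA-binding part of that complex. Its promoter region showed fold enrichments of 7.76 and 5.23 in male and female B6 and of 5.48 and 3.82 in male and female CAST, so that both B6 values were above the CAST value of the same sex. Irf7, the amplifier of type I interferon production, was the exception of the group: its promoter had a peak in male B6 (2.90-fold, percentile 35.8) and none in the other 3 lists.

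Among the sensors, Ifih1 (MDA5, a sensor of long double-stranded RNA) led with 5.96 and 4.24-fold in B6 males and females and 6.59 and 4.54-fold in CAST males and females. Zbp1, a sensor of Z-form nucleic acid, and Trim25, the ubiquitin ligase that acts on RIG-I, were also open in all lists. Ddx58, which encodes RIG-I itself, had a promoter peak in male B6 (3.79-fold) and male CAST (2.82-fold) and in neither female list. Its 2 other regions, over exons inside the gene, were present in all lists, the stronger at 10.3, 6.09, 10.7 and 8.30-fold. Eif2ak2 (PKR, which stops translation on double-stranded RNA) had a promoter peak of 3.37, 2.48 and 2.69-fold in the first 3 lists and none in female CAST.

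The oligoadenylate synthetases make the second messenger that activates RNase L, and this was the least open group. Only Oasl1, which lacks that enzyme activity, had a promoter DHS in all lists, at 5.88, 4.15, 4.76 and 4.88-fold. Oas1a, Oas2 and Oas3 had none, and no list held a peak within 20 kb of Oas2 or Oas3. Oas1b, the flavivirus resistance gene, had a promoter peak only in the male lists (2.45 and 2.69-fold, percentiles 20.1 and 25.1). The Oas1b region also lies within 2.5 kb of a start of Oas1c. Oasl2 had a promoter peak of 2.69-fold in male B6 alone.

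The antiviral effectors split into open and closed promoters. Mx2, a dynamin-like GTPase, Ifitm3, which blocks virus entry at membranes, and Bst2 (tetherin), which holds budding virions at the cell surface, had promoter DHS in all lists. Mx2 was the highest by mean percentile, with 6.07, 3.64, 5.43 and 5.33-fold at a region 536 bp before its start. A second Mx2 region over the start itself was found in male B6 (3.74-fold) and male CAST (2.71-fold) only. Rsad2 (viperin) had 3.22, 3.01 and 2.07-fold and no peak in female CAST. Ifit1, Ifit3, Ifi44 and Mx1 had no promoter DHS, and no peak lay within 20 kb of Ifi44.

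Ifit2, whose protein binds viral RNA with the other IFIT proteins, had a promoter peak in male B6 (2.98-fold) and female B6 (2.43-fold) and in neither CAST list. The authors kept only reads that mapped to 1 place, and near-copies were looked for on that account; their part in missing peaks was not tested. The 300-base promoter window of Ifit3 matched the neighbouring I830012O16Rik locus at 94.4% identity, and those of Mx1 and Mx2 matched each other at 91.7%. None of the 115 regions had another copy of at least 95% identity over at least 80% of its length.

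ISG15 is a ubiquitin-like protein that is attached to other proteins, and Usp18 removes it and also dampens the type I receptor. The region counted for Isg15 lies over the start of the neighbouring AW011738, inside the 2.5 kb limit, and no list had a peak over the start of Isg15 itself. It showed 3.60 and 2.97-fold in male and female B6, 2.01-fold in male CAST, and no peak in female CAST. The Usp18 promoter was open in all lists at 4.54, 2.74, 3.61 and 3.01-fold. Relative to the median of all regions in both lists, its male to female ratio was 1.25 in B6 and 1.01 in CAST. Parp9, an ADP-ribosyltransferase that shares its promoter region with Dtx3l, was open in all lists at 3.18, 2.85, 3.30 and 3.54-fold. The Parp14 promoter had a peak in male B6 (3.13-fold) and male CAST (2.56-fold) and in neither female list.

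Among the GTPases, which attack the vacuoles of intracellular pathogens, Gbp2, Gbp7 and Irgm1 had promoter DHS in all lists. Gbp2 was highest by mean percentile, at 5.51, 3.82, 5.77 and 4.10-fold. Gbp3 was at 4.83, 3.62 and 4.13-fold with no peak in female CAST. Igtp (Irgm3) had narrow peaks of 3.24-fold in male B6 and 3.28-fold in male CAST, from 52 and 49 fragments at the summit, and none in the female lists. The promoter of its neighbour Irgm2, which matched that of Igtp at 91.1% identity, had the same pattern (3.63 and 3.67-fold). Gbp5 had no promoter DHS, but a region 2810 bp from its start was in all 4 lists at 5.69, 4.26, 4.83 and 3.58-fold.

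Antigen processing held the strongest member promoter. Psmb9, a subunit of the immunoproteasome, and Tap1, which carries peptides into the endoplasmic reticulum, start in opposite directions and share the region chr17:34323973-34324852. Its fold enrichment was 10.1 and 7.53 in male and female B6 and 11.4 and 9.27 in male and female CAST, at percentiles 95.4, 94.4, 96.6 and 94.5. Psmb8, another subunit encoded in the same cluster, had a promoter peak in male B6 (3.19-fold) and male CAST (2.31-fold) and in neither female list.

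The study asked how sex differences in liver depend on strain, and within each strain the counts of member regions followed the length of the lists. In B6, 94 regions were in the male and 65 in the female list (ratio 1.45, against 1.49 for all regions). In CAST the numbers were 91 and 58 (ratio 1.57, against 1.61). Of the 38 members, 22 had more regions in male than in female B6, 15 as many and 1 fewer, and in CAST 27 had more, 11 as many and 0 fewer. Over all 22223 coding genes, many without any region, 39.9% had more, 56.4% as many and 3.73% fewer in B6, and 44.2%, 53.3% and 2.49% in CAST.

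**Figure D3:**
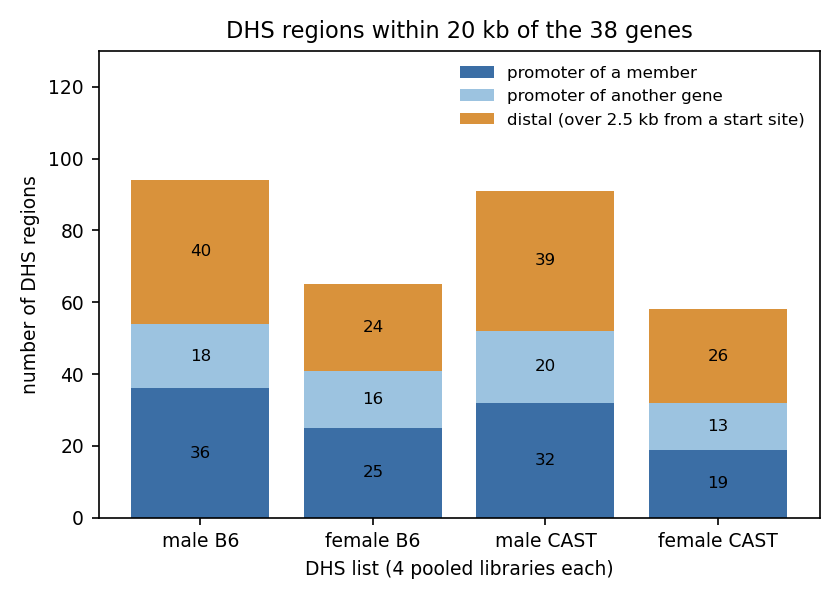
Number of member DHS regions in each list, stacked by kind: promoter of a member, promoter of another gene in the same window, or distal. The male bars reach 94 (B6) and 91 (CAST) and the female bars 65 and 58, with 36 and 25 member promoter regions in B6 and 32 and 19 in CAST.

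Regions found in a single sex did not exceed the share over the whole lists. In B6, 31 of 96 member regions (32.3%) were in the male list only and 2 (2.08%) in the female list only, where all regions gave 36.4% and 5.13%. In CAST, 36 of 94 (38.3%) were male only and 3 (3.19%) female only, where all regions gave 40.3% and 3.9%. The shared fraction between the sexes was 65.6% in B6 (55.7 to 74.4%) and 58.5% in CAST (48.4 to 67.9%), against 58.4% and 55.8% over all regions.

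Both strains agreed on 13 member regions that were in both male lists and in neither female list (11.3%, 6.73 to 18.4%), against 9.31% of regions near any coding gene. Of these, 7 were among the 37 member promoter regions (18.9%, 9.48 to 34.2%), where the share over all 14731 promoter regions was 6.33%. Distal member regions went the other way, with 4 of 55 (7.27%), against 10.9% of distal regions near any coding gene. They were the promoters of Ddx58, Oas1b, Parp14, Igtp and Psmb8, the second region of Mx2, and a region 2109 bp from a coding start of Psmb9. No member region was in both female lists and neither male list, a pattern that was rare at large (24 of the 41596 regions near any coding gene, 0.0577%).

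The fold enrichment of these 7 promoter regions ran from 2.21 to 3.79 in male B6 and from 2.31 to 3.96 in male CAST, with percentiles from 10.9 to 55.5 and from 11.96 to 53.7. The median percentiles of all member promoter regions in these lists were 54.4 and 49.9, so the 7 did not all lie below them. The count rests on how much of each list is used. With all lists cut to the 24888 peaks of the highest −log10 q, 0 of the 7 remained, each having dropped out of at least 1 male list, and the share over all promoter regions was 1.12%. With summit fragments thinned to the background of female CAST, 6 remained, all but Parp14, out of 36 member promoter regions (16.7%, 7.87 to 31.9%), where the share over all promoter regions was 5.67%. At a −log10 q of at least 15.7, other member promoters gave 4 of 25 (16%, 6.4 to 34.7%), where the share over all was 18.6%.

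Few member regions present in both sexes passed the limit on a difference in strength, as over all regions. Ratios were centred on the median of all regions in both lists, since the male values were higher at large (1.32-fold in B6 and 1.19-fold in CAST), and a region was called past a fold of 1.5. In B6, 0 of 63 member regions were called for the male and 1 for the female list, where 2.62% and 2.6% of all shared regions were called. In CAST, 1 of 55 was called for each sex, where 3.31% and 2.56% of all shared regions were. Counts of 0 and 1 allow no statement on the direction of member regions. By a difference of 20 points in rank percentile, 4 member regions were called in B6 (6.35%) and 7 in CAST (12.7%), where 15.7% and 16.2% of all shared regions were.

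The B6 call was a weak distal region 9533 bp from Irgm2 in the Igtp window, at 2.14-fold in the male and 2.48-fold in the female list (log2 ratio −0.61 after centring). The male CAST call was the region near Psmb8 described with the strains below (0.68). The female CAST call was a region near Gm14446 in the Ifit2 and Ifit3 windows, at 2.43-fold in the male and 3.24-fold in the female list (−0.67), and it leaned the same way in B6 without passing the limit (−0.57). Both calls for females were of weak peaks. At the background of its list, the lowest peak was 1.91-fold in female B6 and 2.17-fold in female CAST. With male values this low, a region in both lists leans toward females after centring almost by construction, so these calls give no direction. Just short of the limit in CAST was the Irf8 promoter (−0.54 toward females), which in B6 stood at 0.04.

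The next largest sex ratios all stayed inside the limit. Toward males in B6, they were those of the Apon promoter in the Stat2 window (0.49, from 11.1, 5.99, 9.21 and 7.31-fold), the stronger exonic region of Ddx58 (0.36), and the promoters of Mx2 (0.34), Usp18 (0.33) and Ifitm3 (0.29, from 5.67, 3.51, 6.42 and 4.86-fold). Toward females in B6, they were an intronic region of Trim25 (−0.54, from 2.32 and 2.55-fold in B6 and 2.78-fold in male CAST) and 2 regions in the Ifit3 window (−0.53 each). Of the latter, the region found in B6 only is given below, and the region near I830012O16Rik had 2.63 and 2.88-fold in B6 and 2.49-fold in male CAST. These regions toward females were weak in B6 as well, so the same limit bears on their direction.

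In CAST, the next regions toward males were distal regions in the windows of Trim25 (0.45, from 7.07, 5.12, 8.50 and 5.23-fold) and Zbp1 (0.37, from 2.05-fold in male B6 and 4.58 and 2.97-fold in CAST). An intronic region of Trim25 (0.34, from 2.87, 2.49, 3.28 and 2.19-fold) and the Kpna1 promoter in the Parp9 window (0.34, from 8.10, 6.4, 9.59 and 6.39-fold) followed. The male CAST value of Kpna1 is uncertain: its −log10 q was 10.6, against 107 and 50.4 in male and female B6 and 29.9 in female CAST, and it was the 1 of 317 member peaks whose summit fragments could not be recovered from the scores. Toward females, they were a region in the Oasl2 window found in CAST only (−0.44), the Irgm1 promoter (−0.41, from 3.12, 2.64, 3.33 and 3.72-fold) and a distal region beyond Usp18 (−0.39, from 4.01, 2.88, 3.23 and 3.54-fold).

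By strain, more regions passed the limit than by sex, among members as over all regions. In males, 4 of 75 member regions were called for B6 and 4 for CAST, where 4.49% and 6.68% of all shared regions were called. In females, 2 of 47 were called for B6 and 1 for CAST, where 3.42% and 4.97% were. The windows of the other interferon pathway genes gave 8 and 5 of 131 in males and 4 and 3 of 79 in females.

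**Figure D4:**
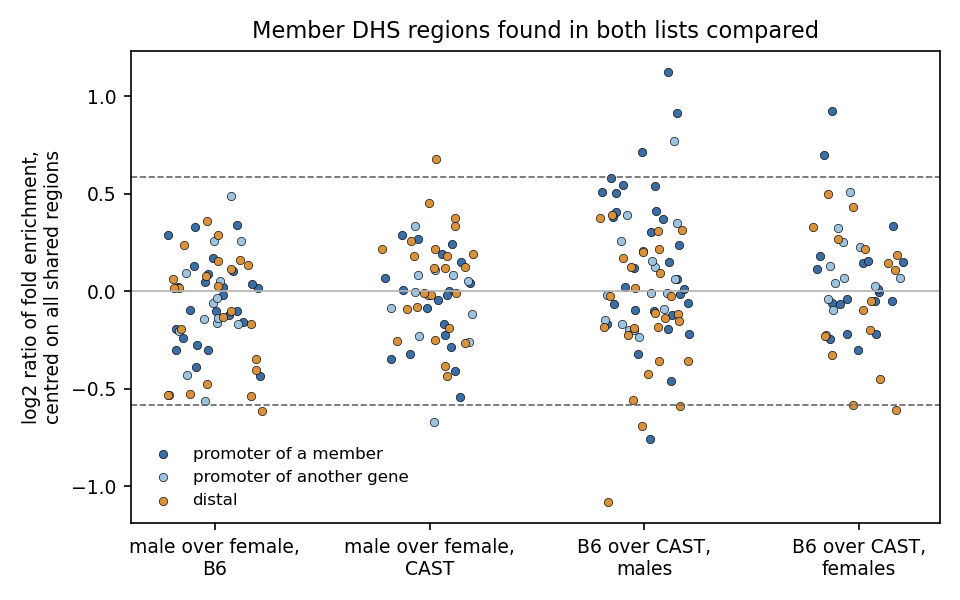
Centred log2 ratio of fold enrichment for each member region found in both lists compared, for 4 comparisons; points are coloured by kind and dashed lines mark a 1.5-fold difference. Most points lie between the lines, and the highest, the Gbp7 promoter, stands at 1.12 in males and 0.92 in females.

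The largest strain ratio at a member promoter was that of Gbp7, whose ISRE is printed above. Its region chr3:142192882-142193877 over the first exon showed 5.28-fold in male B6 and 4.29-fold in female B6, but 2.56-fold and 2.68-fold in CAST males and females. Percentiles were 74.1 and 70.9 in B6 and 20.4 and 10.1 in CAST, and the B6 value was the higher in each sex. The centred log2 ratio was 1.12 in males and 0.92 in females. The summits rested on 88 fragments in B6 males (exact Poisson 95% interval 70.6 to 108) and 63 in B6 females (48.4 to 80.6), and on 38 in CAST males (26.9 to 52.2) and 23 in CAST females (14.6 to 34.5), intervals that cover counting error only.

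Irf9 leaned the same way in both sexes, past the limit in females (0.70) and just short of it in males (0.58). In males, the Rsad2 promoter (0.71) and the region counted for Isg15 (0.92) were also called for B6, and both had no peak in female CAST. The remaining B6 call in males was a region near Gm11006 in the Irf1 window (0.77), which was at 0.51 in females (from 2.93-fold in female B6 to 2.45-fold in female CAST). In females, the region 2810 bp from Gbp5 (0.50) and the intronic region of Trim25 (0.43) followed inside the limit.

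Toward CAST, a region downstream of Irf1 at chr11:53609677-53611274 showed 5.72 and 4.87-fold in male and female B6 and 9.75 and 8.67-fold in male and female CAST. It was called in males (−0.69) and narrowly missed the limit in females (−0.58). A region upstream of Parp9, at chr16:35923734-35924846, showed 8.05 and 5.18-fold in B6 and 9.35 and 9.37-fold in CAST and was called in females (−0.61). The other male calls toward CAST were a distal region in the Zbp1 window (−1.08), the region 2109 bp from Psmb9 (−0.76, from 2.21 and 3.96-fold) and an intronic region of Mx2 (−0.59, from 3.18 and 5.05-fold), none of which had a peak in female B6. Inside the limit, an exonic region of Oasl1 (2.51, 2.75, 3.91 and 3.02-fold) stood at −0.56 in males. In females, a distal region near Irgm1 (3.41, 2.32, 4.21 and 3.77-fold) stood at −0.45, an exonic region of Dtx3l in the Parp9 window (6.07, 4.12, 7.27 and 6.14-fold) at −0.33 and the Mx2 promoter at −0.30.

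Presence by strain gave 19 of 110 member regions in male B6 only (17.3%) and 16 in male CAST only (14.5%), where all regions gave 19.1% and 20.9%. In females, 18 of 76 (23.7%) were in B6 only and 11 (14.5%) in CAST only, where all regions gave 22.6% and 18.3%. The fraction shared between strains was 68.2% in males (59.0 to 76.1%) and 61.8% in females (50.6 to 71.9%), against 59.96% and 59.1% over all regions.

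In both sexes of a single strain, 3 member regions were found in B6 and in no CAST list, and 6 in CAST and in no B6 list. These were 2.61% and 5.22% (2.41 to 10.9%) of member regions, against 2.95% and 3.27% of regions near any coding gene. All 6 CAST regions were distal (10.9% of 55, 5.10 to 21.8%, against 4.40% of distal regions near any coding gene). The strongest lay in the Psmb8 window at chr17:34355506-34356218, outside annotated genes and 4102 bp from the start of Gm15821, with 10.9-fold in male CAST (percentile 96.0) and 5.70-fold in female CAST (percentile 74.9). Its summit held 165 fragments in male CAST (141 to 192) and 50 in female CAST (37.1 to 65.9), and neither B6 list had a peak there.

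The 150 bases around the male CAST summit of this region (chr17:34355804-34355953, plus strand, letters of mm9 and therefore of B6) are shown because they hold both motifs. Capitals mark the ISRE match and 2 GAS matches, the first of which overlaps the ISRE.
region near Psmb8: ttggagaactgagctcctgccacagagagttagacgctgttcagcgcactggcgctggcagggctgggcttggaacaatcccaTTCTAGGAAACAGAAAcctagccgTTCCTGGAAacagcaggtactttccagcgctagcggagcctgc

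The other 5 CAST regions were weaker. They lay near Oasl2 (4.13-fold in males and 4.70 in females), beyond Ifit1 (4.18 and 3.10), in an intron of Ifit2 (3.87 and 2.80, with an ISRE match at the summit), between Gbp7 and Gbp3 (2.69 and 2.68) and beyond Parp14 (2.62 and 2.24). The 3 B6 regions were the Ifit2 promoter given above, a region in the Irf1 window (3.36-fold in males and 2.73 in females) and a region in the Ifit3 window (2.26 and 2.48). Around Ifit2, a peak was thus found at the promoter in B6 only and in the intron in CAST only. The promoter summit held 59 and 41 fragments in male and female B6, and the intron summit 58 and 24 in male and female CAST. Without a peak in the other strain there is no value to compare.

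Over all 115 member regions, 47 were in all 4 lists (40.9%, 32.3 to 50.0%), against 38.2% of the 41596 regions near any coding gene. Member promoter regions were in all lists for 19 of 37 (51.4%, 35.9 to 66.6%), against 63.4% of promoter regions at large, and distal member regions for 16 of 55 (29.1%, 18.8 to 42.1%), against 24.3%. A further 31 (27.0%) were in a single list, against 33.4%. Of the promoters of other genes in the same windows, those of Pan2 beside Stat2 (13.9, 11.8, 14.8 and 12-fold) and Fam125a beside Bst2 (11.97, 10.03, 13.98 and 12.7-fold) exceeded the shared Psmb9 and Tap1 promoter in all 4 lists. So did a distal region in the Ifit2 window, 4550 bp from a start of Lipa (13.01, 8.09, 13.99 and 10.3-fold).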

How the data were processed

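Purified liver nuclei of 16 mice were digested with DNase I and sequenced. Per the study's methods, the authors aligned reads with Bowtie2, kept uniquely mapped reads, used mm9 for B6 and mm9 with CAST variants written in for CAST (coordinates converted back), pooled the reads of a group's 4 libraries, called peaks with MACS2, and removed blacklisted regions and peaks of duplicated reads. Fold enrichment, as deposited, is a ratio: summit pileup over local background. The other deposited columns used were the −log10 p-value and −log10 q-value of each peak and the summit position (distance in bp from the peak start, another deposited unit). All lists lack replicate values, so no test was possible, and p and q values served to filter peaks and recover pileups only.

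Groups came from the library titles. The members and gene lists were chosen with earlier results of these data known. Summit pileups were solved from fold enrichment and p-value with a pseudocount of 1 and lay within 0.02 of a whole number for 99.86 to 99.96% of peaks, depending on the list. Genes, starts and exons came from the GENCODE annotation of mm9, in which 2 of the 47 other pathway genes (Nlrc5 and Ifit3b) were not matched. Named values were given for members whose promoter DHS was not in every list, the member of each role group with the highest mean promoter percentile, up to 5 member regions per comparison and direction with the largest centred ratios, and up to 5 regions found in 1 sex or 1 strain alone. Other members and the other genes' promoters named at the end were added after their values were seen. Copies were sought with blastn (version 2.17.0). Scripts ran in Python 3.11.15 with pandas 2.3.3 and scipy 1.17.1, and joining, recovery and calls were tested on simulated data. Coordinates are mm9 and count from 1.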

Additional observations from a re-analysis of the deposited data

How the results depend on the processing

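Of 87 values under alternative settings, 66 kept within the interval or 1.5 times of the value reported, 20 moved and 1 reversed. No paired analysis was possible because each sex and strain was deposited as a single pooled list and no result came from a test, and pooling also left no replicates to drop in turn. With depth matched, the male to female ratio of member peaks was 1.42 in B6 and 1.43 in CAST (1.47 and 1.48 over all regions). At equal list sizes, which draw this ratio toward 1 by construction, it was 0.969 in B6 and 1 in CAST, the fraction shared by the sexes in CAST was 73.5% (71.6% over all regions), and 0 member promoter regions were in both male lists and neither female list (1.12% over all promoter regions). At the stricter −log10 q of 15.7, 63 member regions were left (25340 of all regions), 6 members had a promoter DHS in every list (27.2% of all coding genes), and 4 promoter regions were in the male lists only, of Bst2, Gbp2, Gbp3 and Irgm1 and thus none of the 7 found in the full lists (18.6% over all promoter regions). With an overlap of 50% of both peaks, 31.6% of member regions were in all 4 lists (30.3% of regions near any coding gene), 53.8% were shared by the sexes in B6 (50.2% over all regions) and 57.0% by the strains in males (52.3%). Without the female CAST list, chosen after seeing the data, 53.6% of member regions were in all 3 others (46.0% near any coding gene). Where the nearest start site had to be a member's, 70 regions were left. At a fold limit of 2 the calls were 0 by sex in B6, 0 by sex in CAST, 2 by strain in males and 0 by strain in females, where 0.220%, 0.369%, 2.31% and 1.10% of all shared regions were called. A rank percentile difference of 20 points gave 4, 7, 16 and 7 in the same order, where it called 15.7%, 16.2%, 18.9% and 23.2% of all. Within 150 bases of the summit of member promoter regions the ISRE share was 43.2%. Alternatives for the male-list promoter regions were also chosen after seeing the data. All 10 values recomputed with depth matched kept within these bounds, and female CAST had the lowest background, 7.94 fragments.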
